A study of Mus musculus with 6 samples.

Results

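Genes that make, break down, sense and carry retinoic acid were measured in Paraxis-/- mouse embryos and in wild type (WT). Paraxis-/- embryos lack the basic helix-loop-helix (bHLH) transcription factor Paraxis encoded by Tcf15. The set held 9 genes: Aldh1a2, Cyp26a1, Cyp26b1, Cyp26c1, Rara, Rarb, Rarg, Crabp1 and Crabp2. A probe was taken when its deposited gene name was one of these symbols, which gave 12 of the 41174 gene probes of the array, for 8 of the 9 genes. Cyp26c1 had no such probe and is not analysed here. All 12 probes passed the filter on dim probes, so 8 of the 19354 genes tested belong to the set. RNA came from the anterior presomitic mesoderm and somites I to IV of E9.5 embryos, and the strain label was C57BL/6J for both genotypes. Tissue of 5 embryos made a pool, and 3 pools of each genotype, listed as biological replicates, were compared on 6 two-colour arrays. How Tcf15 was inactivated is not given in the sources used here.

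Retinoic acid is a small lipid signal made from vitamin A. Aldh1a2 encodes the enzyme that makes most of it in the early embryo, with strong activity in somites, and the Cyp26 enzymes oxidise it in neighbouring tissue such as the tailbud and hindbrain. Rara, Rarb and Rarg encode nuclear receptors that bind DNA with a retinoid X receptor and switch target genes when retinoic acid is bound. Crabp1 and Crabp2 encode cytoplasmic proteins that carry it toward breakdown or toward the receptors. In the trunk the signal from somites opposes FGF8 from the tailbud and keeps left and right somites in step.

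Receptors typically bind a direct repeat of a hexamer with a spacer of 5 bases, and bHLH factors bind the E-box CANNTG. Both were searched for in the 250 bases before each RefSeq gene start (GRCm38.p6), where 8 of the 9 genes had an entry, with 12 starts in all. The hexamer was searched on both strands as AGGTCA, as the variant AGTTCA, as the variant GGGTCA and as the variant GGTTCA, and hexamers inside a repeat were counted among the hexamers too. Of 32851 such stretches, 29 (0.0883%) held the repeat with spacer 5, and those of Cyp26a1 and Rarb were among them. No other stretch of a member held it, while 38.6% of all stretches held a hexamer and 66.2% an E-box. Cyp26a1 and Rarb are textbook direct targets of the receptors, and their stretches are shown with the hexamers in capitals. Aldh1a2 is shown because it had the largest difference between genotypes, with its 2 E-boxes in capitals, and it held no hexamer. A match is a description of letters and not a measured site.
Cyp26a1, chr19:37697558-37697807, plus strand: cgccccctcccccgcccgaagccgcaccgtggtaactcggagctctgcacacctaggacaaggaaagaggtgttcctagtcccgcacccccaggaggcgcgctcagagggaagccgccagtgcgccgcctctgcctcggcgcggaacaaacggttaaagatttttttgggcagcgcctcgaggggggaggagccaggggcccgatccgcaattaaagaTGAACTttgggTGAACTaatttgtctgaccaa
Rarb, chr14:16575477-16575726, minus strand: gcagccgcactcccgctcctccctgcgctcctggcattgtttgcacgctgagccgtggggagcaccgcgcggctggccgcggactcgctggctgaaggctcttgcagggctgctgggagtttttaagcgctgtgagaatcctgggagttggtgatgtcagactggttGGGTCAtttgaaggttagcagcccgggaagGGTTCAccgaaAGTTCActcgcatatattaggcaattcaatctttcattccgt
Aldh1a2, chr9:71215539-71215788, plus strand: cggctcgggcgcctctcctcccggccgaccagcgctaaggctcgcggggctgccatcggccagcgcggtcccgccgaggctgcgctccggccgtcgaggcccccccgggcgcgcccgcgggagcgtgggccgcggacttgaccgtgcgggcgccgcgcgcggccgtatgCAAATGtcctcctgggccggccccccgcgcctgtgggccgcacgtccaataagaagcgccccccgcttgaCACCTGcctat

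A WT pool and a Paraxis-/- pool were hybridised together on 2 arrays of opposite dye, and this gave 3 independent pairs that carry the letter of their WT pool (A, B, C). Of 43379 gene spots, WT RNA gave 27080 to 30982 well above background, and Paraxis-/- RNA gave 28683 to 31795. As a check of the labels, Tcf15 had a log2 ratio of -5.41 (limma adjusted p = 0.000536). Pair A stood apart in some markers of posterior tissue. Tbx6, a T-box factor of the presomitic mesoderm, had a log2 level of 10.03 in the WT pool of pair A and between 12.10 and 12.90 in the other 5 pools. Cdx2, a homeobox gene of the tailbud, had 10.701 there and between 11.91 and 13.81 elsewhere. Not all such markers were low in that pool. Wnt3a of the tailbud had 10.20 there, against 10.16 and 9.97 in the WT pools of pairs B and C. Lfng of the presomitic mesoderm had 8.68, against 8.61 and 8.49. Ratios of the retinoic acid genes are therefore given with and without pair A, which also lies alone on slide 1. A ratio is the log2 of Paraxis-/- divided by WT, n is 3 pairs, SE is that of the limma fit, and intervals of 95% are from that fit with no adjustment for the number of genes. In whole tissue, fewer cells of a type and less RNA per cell cannot be told apart.

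Aldh1a2, the gene of synthesis, was the member with the largest difference, and its levels were lower in every Paraxis-/- pool than in every WT pool. Its log2 level was 13.83, 13.50 and 13.46 in the WT pools of pairs A, B and C, and 12.77, 12.72 and 12.85 in the Paraxis-/- pools. The WT pools spread over a wider range (SD 0.20) than the Paraxis-/- pools (SD 0.07), and the WT pool of pair A was the highest. The pair ratios were -1.06, -0.79 and -0.60, with a mean of -0.82 (SE 0.11, interval -1.09 to -0.54), which is 1.76-fold lower. Both dye orientations of a pair gave close values: -1.04 and -1.08 in pair A, -0.78 and -0.79 in pair B, and -0.67 and -0.54 in pair C. A ratio this low or lower was found for 31 of the 19354 genes, or 0.16%.

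The Aldh1a2 difference did not pass the threshold of 0.05 over all genes (limma unadjusted p = 0.00065, adjusted p = 0.359), and an exact two-sided sign-flip test gave p = 0.25, the smallest that 3 pairs allow. Without pair A the ratio was -0.70 (limma adjusted p = 0.323). It passed with slide as a block, which weights both slides equally (-0.88, limma adjusted p = 0.0449), with the pair as a replicate block over 6 arrays (-0.82, limma adjusted p = 0.0066) and with 6 arrays and no block (-0.82, limma adjusted p = 0.00498). The fit with no block takes the arrays of exchanged dyes, which hold the same RNA, for separate samples. The fit with the pair as block allows a correlation within pairs, shared by all genes, but still counts 6 arrays. Over all 18 alternatives its adjusted p ran from 0.00498 to 0.992. In mm9 the 1 probe of Aldh1a2 spans 71143931 to 71143990 of chromosome 9, and whether it lies in a coding or untranslated part is not annotated here.

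Of the 8 genes tested, none passed the adjusted threshold in limma, against 0.0207% of all genes (0.0103% lower and 0.0103% higher). At an unadjusted p under 0.05 there was 1 member lower, Aldh1a2, and 0 higher, against 5.07% of all genes (2.73% lower and 2.34% higher). Aldh1a2 was also the single member with the same sign in all 3 pairs, against 25.7% of all genes. Non-overlapping pool levels of the genotypes were found for this 1 member, against 5.96% of all genes. The median log2 ratio of the 8 genes was 0.05, and that of all genes tested was 0.00. Mean ratios were positive for 6 members and negative for 2.

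**Figure D1:**
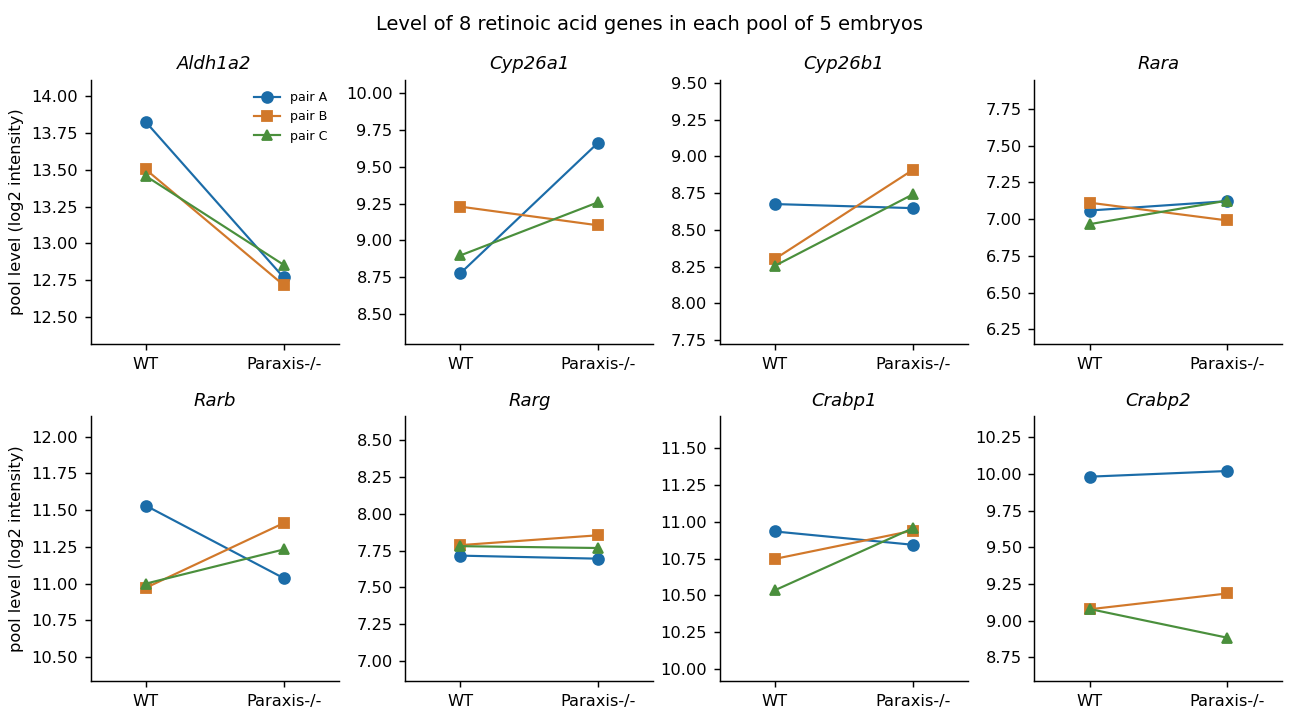
Log2 level of each retinoic acid gene (vertical axis, the same span in each panel) in the WT and Paraxis-/- pools, each point 1 pool of 5 embryos and each line 1 pair. The Aldh1a2 levels lie between 13.46 and 13.83 in WT and between 12.72 and 12.85 in Paraxis-/- pools, while the levels of the other 7 genes overlap between genotypes.

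The genes of breakdown had positive mean ratios that did not pass the test, and each had a pair of the opposite sign. Cyp26a1, the main retinoic acid hydroxylase of the tailbud, had log2 levels of 8.78, 9.23 and 8.90 in the WT pools of pairs A, B and C, and 9.67, 9.10 and 9.26 in the Paraxis-/- pools. The highest level was in the Paraxis-/- pool of pair A and the lowest in the WT pool of the same pair. The pair ratios were 0.89, -0.13 and 0.36, with a mean of 0.37 (SE 0.20, interval -0.14 to 0.89, limma adjusted p = 0.95). The mean was 0.12 without pair A and 0.63 without pair B, so the size of the Cyp26a1 ratio depended on which pair was left out. Its probe is on chromosome 19 from 37775566 to 37775625 in mm9, and it is shown as the sequence that was hybridised for this gene.
Cyp26a1 probe: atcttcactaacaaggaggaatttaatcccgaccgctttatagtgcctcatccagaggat

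Cyp26b1, a related hydroxylase expressed in hindbrain and limb, showed the reverse arrangement of pairs. Its log2 levels were 8.68, 8.30 and 8.26 in WT and 8.65, 8.91 and 8.74 in Paraxis-/- pools of pairs A, B and C. The Paraxis-/- pool of pair A lay just below its WT partner, and the other Paraxis-/- pools lay above theirs. The mean ratio was 0.35 (SE 0.14, interval -0.01 to 0.72, limma adjusted p = 0.95), with pair ratios of -0.03, 0.61 and 0.49. Without pair A it was 0.55 (limma adjusted p = 0.451), and without pair B it was 0.23 (limma adjusted p = 0.992). The dye orientations differed for this probe, with a mean of 0.10 over the arrays with WT in Cy5 and 0.61 over those with Paraxis-/- in Cy5, so the average over both is the value to read. In mm9 its probe spans 84521952 to 84522011 of chromosome 6.

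The 3 receptor genes had mean ratios near 0. Rarb, which is itself a target of retinoic acid, varied most between pairs of the 3 (SD 0.49, against 0.14 for Rara and 0.05 for Rarg). The probes used for Rara and Rarg were dim, at log2 levels of at most 7.85 against at least 10.97 for Rarb. The part of low signal in these SDs and in the ratios near 0 was not tested. The brighter Rarb probe was printed as 10 spots on each array. Its log2 levels were 11.53, 10.97 and 11.00 in WT and 11.04, 11.41 and 11.23 in Paraxis-/- pools. The WT pool of pair A was the highest of all, so that the pair ratios were -0.49, 0.44 and 0.23 with a mean of 0.06 (SE 0.19, interval -0.44 to 0.56, limma adjusted p = 0.991). Within an array the SD over the spots used, a technical spread, was between 0.03 and 0.07. Without pair A the mean was 0.34 (limma adjusted p = 0.746), and without pair B it was -0.13.

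A dimmer Rarb probe, designed on a partial transcript of the RAR-beta 4 isoform, had a mean of -0.14 (SE 0.10) with pair ratios of -0.35, 0.08 and -0.15. Both Rarb probes were lowest in pair A and highest in pair B. In mm9 the brighter probe spans 17263511 to 17263570 of chromosome 14, and the isoform probe maps between 17381032 and 17407740, a span of 26709 bases for a probe of 60, so that it must cross at least 1 intron. The isoform probe is shown because it reads a different stretch of the gene from the repeated one.
Rarb isoform probe: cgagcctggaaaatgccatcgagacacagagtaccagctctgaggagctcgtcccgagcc

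Rara, the broadly expressed receptor, had a mean ratio of 0.03 (SE 0.08, interval -0.18 to 0.25) and log2 levels between 6.97 and 7.11 in WT and between 6.99 and 7.13 in Paraxis-/- pools. Rarg, a receptor of presomitic and mesenchymal tissue, had 0.01 (SE 0.07, interval -0.16 to 0.18), with levels between 7.72 and 7.79 in WT and between 7.69 and 7.85 in Paraxis-/- pools. These intervals still hold differences as large as their bounds, and the limma adjusted p was 0.988 for Rara and 0.994 for Rarg. Without pair A the ratio was 0.02 for Rara and 0.03 for Rarg. Both probes were dim, and with Agilent processed signals Rara had 0.13 (SE 0.15) and Rarg 0.02 (SE 0.10). The 4 Rarg probes had means between -0.01 and 0.14. The probe at 0.14, on chromosome 15 from 102066309 to 102066368 in mm9, had a pair A ratio of 0.40. That of the probe used for the gene, from 102072411 to 102072470, was -0.02. The Rara probe spans 98831859 to 98831918 of chromosome 11.

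Neither binding protein gene differed beyond the spread of its pairs. Crabp1, also known as a marker of neural crest and hindbrain, had log2 levels of 10.93, 10.75 and 10.53 in WT and 10.84, 10.94 and 10.96 in Paraxis-/- pools of pairs A, B and C. The WT pool of pair C was the lowest. The mean ratio was 0.17 (SE 0.11, interval -0.12 to 0.47, limma adjusted p = 0.953). It was 0.31 without pair A and 0.05 without pair C. The dye orientations differed by sign, at 0.41 with WT in Cy5 and -0.06 with Paraxis-/- in Cy5.

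Crabp2, which hands retinoic acid to its receptors, had a mean ratio of -0.02 (SE 0.09, interval -0.24 to 0.21, limma adjusted p = 0.994). Its pair ratios were 0.04, 0.11 and -0.20, and the mean without pair A was -0.04. Its levels differed between slides and not between genotypes: 9.98 and 10.02 in the WT and Paraxis-/- pools on slide 1, against 8.88 to 9.19 in the 4 pools on slide 2. Slide and pool cannot be told apart for this difference. In mm9 the Crabp1 probe spans 54616192 to 54616251 of chromosome 9, and that of Crabp2 87752682 to 87752741 of chromosome 3.

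**Figure D2:**
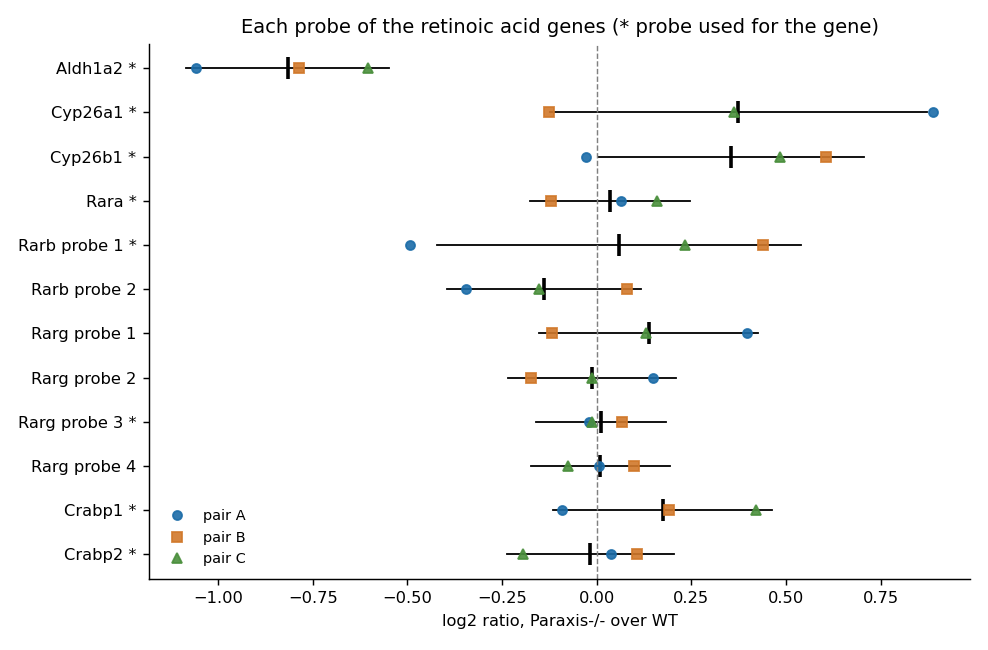
Log2 ratio of Paraxis-/- over WT (horizontal axis) for each of the 12 probes, with the 3 pairs as coloured points, the mean as a vertical tick and the 95% interval of the limma fit over all kept probes as a line. The Aldh1a2 interval lies below 0, that of Cyp26b1 starts at 0.00 in this fit over probes, and those of the other 10 probes hold 0.

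The pairs were then set beside markers of the tissues that the dissection could hold, because several members are known from more than 1 of them. All 9 somite markers and 8 of the 9 presomitic markers were tested, all but Ripply2. So were all 8 tailbud, 7 primitive blood and 5 endoderm markers, so passing the filter on dim probes cannot show which tissue was taken. The anterior brain markers Otx2, Six3 and En1 did not pass this filter. The 8 tailbud markers, such as T and Fgf8, had median ratios of 1.07, -0.36 and 0.09 in pairs A, B and C. Their summed linear level was 5245 to 12896 in WT and 9290 to 20826 in Paraxis-/- pools, and the lowest and the highest were both in pair A. The 8 presomitic markers had medians of 0.58, -0.18 and 0.06, with summed levels of 8787 to 20811 in WT and 15783 to 22127 in Paraxis-/- pools. Cyp26a1, at 0.89, -0.13 and 0.36, was likewise highest in pair A and lowest in pair B. This order was not particular to posterior tissue. The surface ectoderm markers had medians of 0.61, 0.03 and 0.14, and the endoderm markers 0.49, 0.02 and 0.05. The part of any of these tissues in the Cyp26a1 ratio was not tested.

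Rarb, Cyp26b1 and Crabp1 were each lowest in pair A. The 10 neural tube markers tested, of 11 listed, had medians of -0.19, 0.13 and 0.29. Their summed levels were 23988 to 42152 in WT and 23485 to 32924 in Paraxis-/- pools, and Sox3 had no probe under that name. Dbx1, a homeobox gene of the neural tube, was the most extreme of them, at -2.12, 1.08 and 1.31. Sox1, Irx3 and Egr2, all dim, were positive in pair A, at 0.06, 0.02 and 0.01, and the other neural tube markers tested were negative there. The 7 neural crest markers had medians of -0.40, 0.23 and 0.17, with summed levels of 9977 to 15296 in WT and 12559 to 13191 in Paraxis-/- pools. The WT pool of pair A had the highest summed level of both lists. The medians of the 7 endothelial markers were also lowest in pair A, at -0.23, 0.16 and 0.09, although Etv2 among them had 1.82, 1.28 and 1.51. Their summed levels were 6835 to 6930 in WT and 6349 to 9744 in Paraxis-/- pools. Here the WT pool of pair A had the lowest WT sum, unlike in the neural lists. The part of neural or endothelial tissue in the ratios of these 3 genes was not tested.

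Aldh1a2 had one sign in all pairs, as did the median of the 9 somite markers, at -0.70, -0.49 and -0.39. Pax1, a paired-box gene of the sclerotome, fell by 4.35 (SE 0.13, limma adjusted p = 0.00465) and was the 1 marker past the threshold. Meox2, a homeobox gene of the somite, had -1.59, Uncx of the caudal somite -0.78 and Tbx18 of the rostral somite -1.02, each with the same sign in 3 pairs. Meox1, a related homeobox gene, had 0.24, so the somite markers did not all lie below 0. Their summed level was 50857 to 59830 in WT and 41192 to 58342 in Paraxis-/- pools. Meox1 was the brightest of the 9 in every pool, at log2 levels of 14.27 to 15.23, so it weighs most in this sum. Aldh1a2 is also known from lateral plate and intermediate mesoderm, where the 12 markers had medians of 0.05, 0.11 and 0.03, with summed levels of 5406 to 5688 in WT and 5738 to 6747 in Paraxis-/- pools. Which tissue carried the Aldh1a2 difference was not tested.

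**Figure D3:**
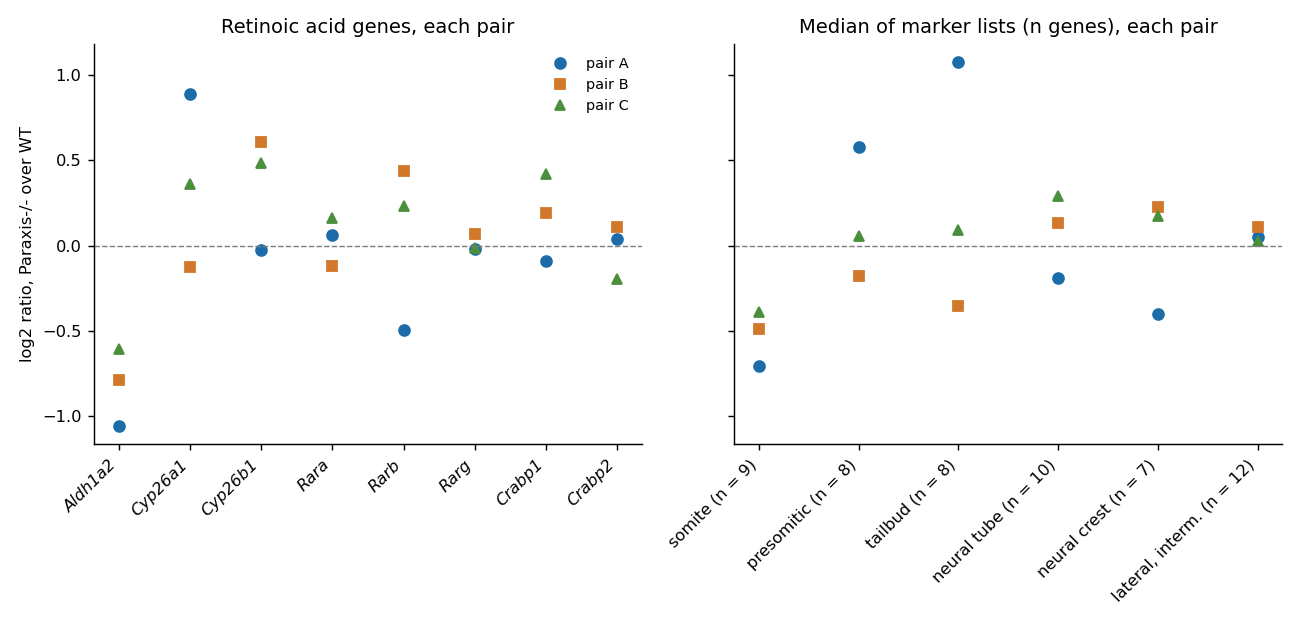
Log2 ratio of Paraxis-/- over WT in each pair (colour and shape) for the 8 retinoic acid genes on the left and for the median of 6 marker lists on the right, with the number of genes in each list. Cyp26a1 and the tailbud list are highest in pair A, at 0.89 and 1.07, Rarb and the neural crest list are lowest there, at -0.49 and -0.40, and Aldh1a2 and the somite list are below 0 in all pairs.

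Other genes of the pathway were counted in 3 lists. The lists overlap: Dhrs3 and Stra6, for example, stand among metabolism and targets, and Nrip1 among cofactors and targets. Of 18 listed genes of retinoid transport and metabolism, 15 were tested, and none passed in either direction in limma. At an unadjusted p under 0.05 there were 2 higher and 0 lower, against 2.34% higher and 2.73% lower of all genes. The list median was 0.01. Rbp4, the blood carrier of retinol, had the largest ratio of the list, at 0.87 (SE 0.19, limma adjusted p = 0.672), with 1.42, 0.65 and 0.56 in the pairs. Afp, a marker of visceral endoderm, where Rbp4 is also made, had 1.58 and -0.20 in pairs B and C. In the WT pool of pair A most Afp spots were not well above background, so no ratio is given there. The Afp log2 level was 6.44 in that pool and 10.79 in the Paraxis-/- pool of pair A. The part of visceral endoderm in the Rbp4 ratio was not tested. Aldh1a1, a related dehydrogenase, had 0.28 (SE 0.08, limma adjusted p = 0.898), with 0.42, 0.20 and 0.22. Dhrs3, a reductase that returns retinal to retinol and is induced by retinoic acid, had -0.37 (SE 0.15, limma adjusted p = 0.95), with -0.79, -0.18 and -0.13. Dhrs4 had -0.37 with -0.18, -0.14 and -0.79. Rdh10, which makes the retinal that Aldh1a2 uses, had 0.20 with -0.21, 0.38 and 0.41. Adh7, Lrat and Ttr did not pass the filter on dim probes.

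All 16 receptor partners and cofactors were tested, and none passed in limma. At an unadjusted p under 0.05 there was 1 higher, the coactivator Ncoa3 (0.22, SE 0.08), and 0 lower. The shares over all genes were 2.34% higher and 2.73% lower. The list median was -0.01. The retinoid X receptors Rxra, Rxrb and Rxrg, the partners of the retinoic acid receptors on DNA, had 0.02, -0.24 and 0.20. The corepressor Ncor1 had -0.12. The list was narrow, running from -0.24 to 0.23.

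The 12 target genes had a median of 0.08, and none passed in limma. At an unadjusted p under 0.05 there was 1 higher and 0 lower, against 2.34% higher and 2.73% lower of all genes. Hoxd4, a Hox gene with a known retinoic acid enhancer, had 0.62 (SE 0.14, limma adjusted p = 0.772), with 0.61, 0.28 and 0.97. Meis1, a Hox cofactor, had -0.21, with -0.46, -0.11 and -0.06. The list medians of the pairs were 0.44, -0.10 and -0.05, so the positive median rested on pair A. The tailbud, surface ectoderm and endoderm lists had their highest medians in pair A too. The part of these tissues in the ratios of the target genes was not tested. Of the 12 target genes 5 had negative mean ratios, as Aldh1a2 did, and 7 positive. The same sign in all 3 pairs was held by 5 of the 12, against 25.7% of all genes. Dhrs3, which is also in this list, Meis1 and Nrip1 were negative in all 3 pairs, and Hoxd4 and Tgm2 were positive.

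**Figure D4:**
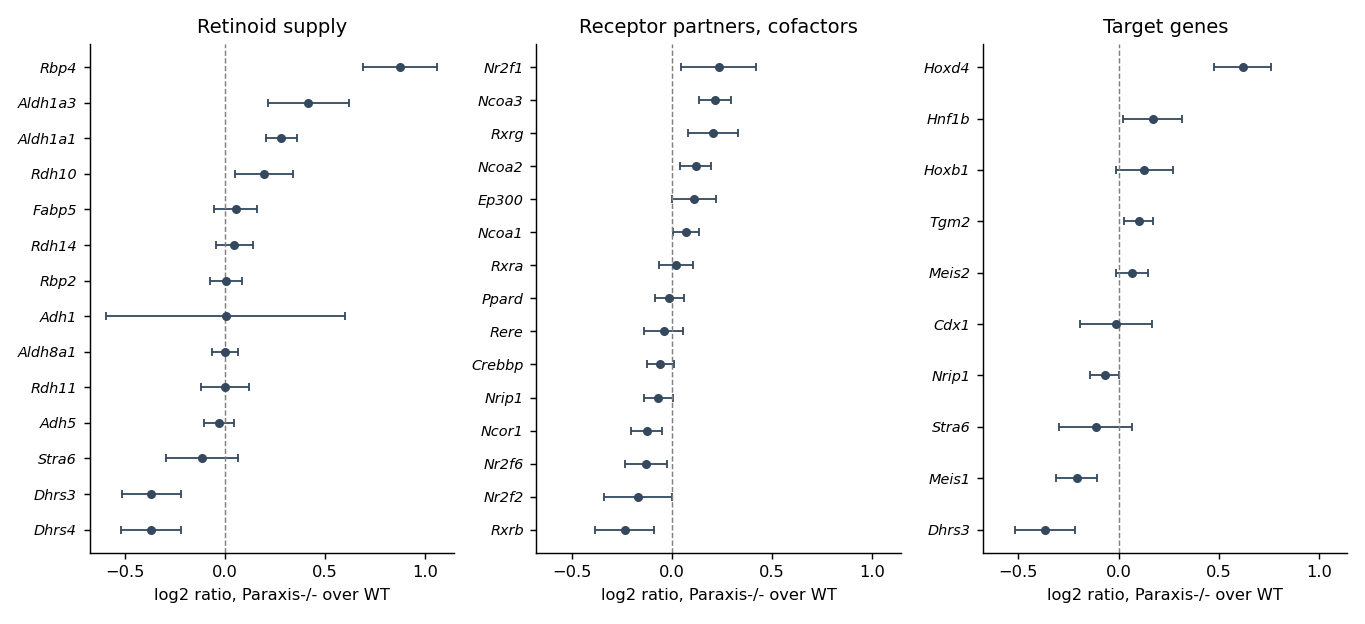
Log2 ratio of Paraxis-/- over WT (horizontal axis) with its SE for tested genes of 3 pathway lists, ordered by ratio, with a few genes not drawn. No gene of these lists passed the adjusted threshold, and the ratios run from -0.37 for Dhrs4 to 0.87 for Rbp4.

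The genes whose pair ratios were most like those of Aldh1a2 and Cyp26b1, the members with the smallest p, were found by the root mean square difference over 3 pairs. For Aldh1a2 these were Plod1, a collagen lysyl hydroxylase (difference 0.14, mean ratio -0.68), Fst, which encodes the activin and BMP antagonist follistatin (0.17, -0.68), Cttnbp2 (0.18, -0.68), Adam18 (0.19, -0.9997) and Cp, the copper protein ceruloplasmin (0.20, -0.80). For Cyp26b1 they included Prss12 (difference 0.07, mean ratio 0.32), Pgm5 (0.07, 0.33), Itga11 (0.08, 0.38) and Sorl1 (0.09, 0.31). None of these genes passed the adjusted threshold in limma. With 3 pairs the likeness is a description.

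**Figure D5:**
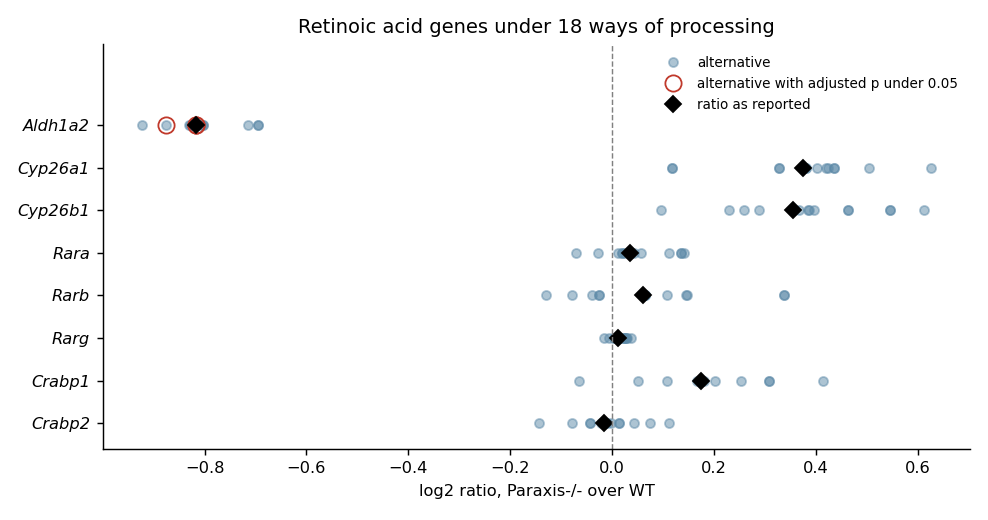
Log2 ratio of Paraxis-/- over WT (horizontal axis) of each retinoic acid gene as reported (diamond) and under 18 alternative ways of processing (points), with a ring where the limma adjusted p was under 0.05. Aldh1a2 runs from -0.92 to -0.70 and has 3 rings, while the Rara, Rarb, Rarg, Crabp1 and Crabp2 points lie on both sides of 0.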

How the data were processed

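Spot intensity of 2 colours came from Agilent's Feature Extraction software, 10.7.3.1 for slide 1 (pair A) and 10.5.1.1 for slide 2 (pairs B and C), on build mm9, per the file headers; the submitters' processing notes name 8.5.1.1. Labels give 250 ng of total RNA and an RNA integrity number of at least 7.9. The deposited log10 ratios of Cy5 over Cy3 in the series matrix differed from the scanner files by at most 5e-11, with column medians of 0.

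Median spot and background intensities were corrected with normexp (offset 50), normalized by loess in limma 3.58.1 (R 4.3.3), with 1639 control spots at no weight and outlier spots left out. Spots of a probe were averaged. Each array's ratio was set as Paraxis-/- divided by WT, and the 2 arrays of a pair, which hold the same RNA, were averaged. Titles define the pairs, since 2 descriptions name other pools in their first sentence. Deviations from the mean of a dye orientation correlated across genes at 0.38, 0.62 and 0.61 within pairs and between -0.79 and -0.06 otherwise. Subtracting that mean itself pushes correlations between arrays of 1 orientation below 0. Ratios without this step correlated at 0.31, 0.27 and 0.57 within pairs and between -0.13 and 0.32 otherwise, so these do not separate all pairs. Levels are log2 values after loess and Aquantile.

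Probes well above background in at least 4 of 6 measurements of either genotype were kept (28639), and the brightest represented each gene. Of all probes 26690 were named by accession, 5189 by symbol and 952 by synonym through RefSeq; 8343 kept the name in the file. Pair ratios were tested against 0, two-sided, with lmFit and eBayes and Benjamini-Hochberg adjustment over 19354 genes, 73 with fewer than 3 pairs; all 8 members had 3. The fit was tested on simulated data. Named genes are the members, up to 4 genes with the smallest p per list (not all named) and those past the threshold. The genes most like 2 members are named too. Meox1, Dbx1, Sox1, Egr2, Cdx2, Fgf8, Rdh10, Rxra, Nrip1, Tgm2, Blvrb, Hbb-y and Prokr2 fall outside this rule. They were chosen after their values were seen. Some genes are not reported here by name. Members and lists were chosen with earlier results of these data known. Promoter letters are RefSeq's (GRCm38.p6), and motifs and windows were chosen after the ratios were seen. Coordinates of probes are those of the files.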

Additional observations from a re-analysis of the deposited data

How the results depend on the processing

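Alternatives covered background correction, normalization, dim-probe filters, probe choice, deposited ratios, dye orientation, slide, arrays as replicates and leaving out each pair. They are not all distinct. Deposited ratios gave the same values as Agilent processed signals, and slide 2 alone repeats the fit without pair A. The Aldh1a2 log2 ratio kept its sign in all 18, from -0.92 to -0.70, and the signs of Cyp26a1 and Cyp26b1 held too. Aldh1a2 was the 1 member past the threshold in 3 alternatives: -0.88 with slide as a block, and -0.82 with 6 arrays and the pair as replicate block or with no replicate block. Leaving out 1 pair gave -0.92 to -0.70. No member passed in the other 15. Genes past the threshold over all genes were 4; they were 18 with scaling between arrays, 96 with 6 arrays and no replicate block, 76 with the pair as replicate block, 76 with slide as a block, 19 with WT in Cy5 alone and 2 with Paraxis-/- in Cy5 alone. Slide 2 alone, which is the fit without pair A, gave 2, and leaving out 1 pair gave 0 to 2, with fewer pairs to test. Signs turned for members near 0, none past the threshold. Crabp2 had 0.0125 with Agilent processed signals and with deposited ratios, 0.0425 with median centring and 0.11 with WT in Cy5 alone, and leaving out 1 pair gave -0.0785 to 0.0732. Rarb had -0.0399 as the mean of its probes, -0.0267 with WT in Cy5 alone and -0.0786 with slide as a block, and leaving out 1 pair gave -0.13 to 0.34. Rara had -0.0714 with WT in Cy5 alone, and leaving out 1 pair gave -0.0285 to 0.11. Rarg had -0.0061 with WT in Cy5 alone, and leaving out 1 pair gave -0.0166 to 0.0272. Crabp1 had -0.0649 with Paraxis-/- in Cy5 alone. Where fewer pairs did not set it, the cause was not tested. The number of pairs limits the precision, and a slide 1 of 1 pair allows no test within it.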

Other observations

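The repeat of hexamers with a spacer of 5 bases was found before the starts of 28 genes, and 8 of these were tested, Cyp26a1 and Rarb among them. None passed the adjusted threshold in limma. At an unadjusted p under 0.05 there were 0 in either direction, against 5.07% of all genes. The median log2 ratio was 0.03. Hbb-y, an embryonic globin gene, had 0.56, with 0.07, 1.73 and -0.12 in pairs A, B and C, and Blvrb, a biliverdin reductase of red cells, had 0.43, with 0.69, 0.76 and -0.16. The 7 markers of primitive blood had medians of 0.27, 1.096 and -0.12 in the same pairs. Prokr2, a neuropeptide receptor gene with the repeat, had 0.01.

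Markers of tissues outside the paraxial mesoderm were not shifted alike. The 7 endothelial markers had a median of -0.09, although Etv2, an ETS factor of endothelial progenitors, had 1.54 (SE 0.12, limma adjusted p = 0.126). The 6 surface ectoderm markers tested had a median of 0.27, with 0.61, 0.03 and 0.14 in the pairs. The 5 endoderm markers had a median of 0.22, with 0.49, 0.02 and 0.05, and Sox17 had 0.29 with the same sign in 3 pairs. Of 5 forebrain and midbrain markers 2 were tested, and Lhx2 had 0.50. No gene named here passed the adjusted threshold.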
